A study of Mus musculus with 6 samples.

Results

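The genes described here are Cirbp and Rbm3, which encode the cold-inducible RNA-binding proteins, and Clk1, Clk2 and Clk4, which encode kinases of the CDC-like family. A probe set was taken where the platform annotation named exactly 1 of these 5 genes, which gave 7 of the 45037 probe sets other than array controls and 5 of 18194 genes with a probe set, and where a gene had several probe sets the brightest one on average led. Both Rbm3 probe sets are also annotated to the pseudogene Rbm3-ps, so their signal cannot be assigned to either and is written Rbm3/Rbm3-ps. All 7 probe sets passed the filter on low values. The 5 genes were chosen by their levels on these same arrays, Cirbp for its place among the largest rises between 1 and 2 weeks. The differences of the 5 genes below, with the adjusted p of each from a fit across all genes, are therefore descriptions and support nothing.

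The arrays measured RNA of tumour cells taken from mouse lungs. MVT1 is a mouse mammary tumour cell line that metastasises to lung; cells carrying green fluorescent protein (GFP) were injected into a vein of syngeneic FVB/N mice, and fluorescent cells were sorted from the lungs. There were 3 groups of 2 arrays. GW2580, which inhibits the kinase of the CSF1 receptor, was gavaged daily at 160 mg per kg from 1 week after injection, and cells were sorted at 2 weeks (GW2580, 2 weeks). Vehicle alone (Tween-80 at 0.05% and hydroxypropylmethylcellulose at 0.5% in solution) was given to mice whose cells were sorted at 2 weeks (vehicle, 2 weeks) or at 1 week (vehicle, 1 week), when dosing began. The vehicle groups thus differ in time and in length of dosing, which cannot be told apart. All 3 groups share the cell line, the GFP tag, the strain and the tissue, and the design text gives 2 mice for each vehicle group. It gives no number of mice for the GW2580 arrays, so their spread may be technical. MVT1 is 1 cell line, and the inhibitor was given to the mouse rather than to the tumour cells alone.

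CIRBP and RBM3 are small proteins with a single RNA recognition motif (RRM) and a glycine-rich tail whose transcripts accumulate when mammalian cells are cooled mildly and decline when they are warmed. They bind RNA and affect the stability, translation and polyadenylation site choice of their targets, among them transcripts of clock genes, and CIRBP released from cells can act as an inflammatory signal through TLR4 and TREM1. The CLK kinases phosphorylate the serine- and arginine-rich (SR) splicing factors, which releases these factors from nuclear speckles, and the activity of CLK1 and CLK4 rises as temperature falls within the range of body temperature. Clk1 and Clk4 transcripts are themselves alternatively spliced, with intron-retaining forms held in the nucleus.

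In the mouse assembly GRCm38.p6, RefSeq places Cirbp at chr10:80165990-80172786, Rbm3 at chrX:8138975-8145880, Rbm3-ps at chr1:150264926-150266073, Clk1 at chr1:58411988-58424088, Clk2 at chr3:89164795-89177087 and Clk4 at chr11:51263114-51281770. The sequences below are the 250 bases before an annotated start site, from RefSeq on that build, for the gene that changed most (Cirbp) and for the members beside it for which a window was at hand. The Cirbp window lies at chr10:80167589-80167838 on the + strand, inside the RefSeq gene span, whose longest form starts further upstream. The Clk2 window lies at chr3:89164545-89164794 and the Clk4 window at chr11:51262864-51263113, both on the + strand. Capitals mark the mild-cold response element reported for the Cirbp promoter (TCCCCGCC), the CCAAT box on either strand (CCAAT, or ATTGG) and the E-box CACGTG.
Cirbp: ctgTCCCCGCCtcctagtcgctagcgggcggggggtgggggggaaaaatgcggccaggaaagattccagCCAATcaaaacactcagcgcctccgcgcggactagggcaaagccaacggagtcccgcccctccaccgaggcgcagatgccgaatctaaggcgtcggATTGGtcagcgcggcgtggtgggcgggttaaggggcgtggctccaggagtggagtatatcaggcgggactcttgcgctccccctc
Clk2: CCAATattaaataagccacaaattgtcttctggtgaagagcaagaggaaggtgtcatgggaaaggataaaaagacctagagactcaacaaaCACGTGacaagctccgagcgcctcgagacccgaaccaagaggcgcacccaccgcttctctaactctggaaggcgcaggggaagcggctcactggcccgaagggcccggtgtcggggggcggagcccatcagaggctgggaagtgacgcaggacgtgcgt
Clk4: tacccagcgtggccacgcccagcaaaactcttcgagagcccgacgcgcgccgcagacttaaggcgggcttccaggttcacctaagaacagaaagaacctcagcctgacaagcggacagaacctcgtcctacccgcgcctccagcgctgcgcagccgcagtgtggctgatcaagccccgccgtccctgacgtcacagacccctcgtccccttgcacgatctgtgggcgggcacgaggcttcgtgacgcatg
The element TCCCCGCC stood once in this Cirbp window, 247 bases before its start site, and in neither the Clk2 nor the Clk4 window. It was searched on both strands and occurred in 4.64% of 32851 promoter windows of the same length. A window before a second annotated Cirbp start site, at chr10:80167921-80168170 on the + strand, held it 0 times, with CCAAT 0 times and the GC box GGGCGG 4 times. The Cirbp window shown also held the CCAAT box 2 times, 1 on each strand, and the GC box GGGCGG 3 times in lower case, none overlapping the capitals. Over all windows 33.9% held CCAAT and 32.7% held GGGCGG on either strand, although GGGCGG can overlap TCCCCGCC. The E-box, present in 6.02% of windows, occurred once in the Clk2 window. The heat shock cores TTCNNGAA and GAANNTTC, found in 7.17% and 6.69% of windows, were in none of the 3. A match here is a run of letters and not a site shown to be bound.

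Levels below are RMA log2 values, in which 1 unit is a doubling, and each group mean has its SD over n = 2 arrays. Arrays of a group correlated at r = 0.988 to 0.992 over the genes tested, and arrays of different groups at 0.970 to 0.987. Control probe sets set 2 arrays apart. Replicate 2 of the 2-week vehicle group had a 3' minus 5' difference of 1.2 for beta-actin and 0.92 for Gapdh, against 0.38 to 0.50 and -0.13 to -0.10 on the other 5 arrays. Replicate 1 of the 1-week vehicle group had a BioB hybridisation control level of 10.3, against 9.10 to 9.31 on the others. Among markers of the labelled tumour epithelium, Krt8 and Krt18 lay above 99% of probe sets, Epcam averaged 7.05, and Cdh1, at 3.67, lay below the filter on low values of 4.97. The sorted cells are a bulk sample, in which fewer cells of a type and less RNA per cell cannot be told apart.

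Cirbp was the member that differed most between the groups. Its level was 7.65 and 8.37 on the GW2580 arrays, 10.10 and 9.001 on the 2-week vehicle arrays, and 6.92 and 7.24 on the 1-week vehicle arrays. No array of any group overlapped another group, and the order was the same whichever array was taken: highest in 2-week vehicle, between in 2-week GW2580 and lowest in 1-week vehicle. The mean was 8.01 ± 0.51 in GW2580, 9.55 ± 0.78 in 2-week vehicle and 7.08 ± 0.22 in 1-week vehicle. Over the 6 arrays Cirbp spanned 3.18 log2 units, a wider span than 99.9% of the 13091 genes tested, the median gene spanning 0.48.

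In cells from vehicle-treated mice, Cirbp was 5.55-fold higher at 2 weeks than at 1 week (95% interval 3.13 to 9.85; log2 difference 2.47, SE 0.36), the 8th largest rise of all genes tested, with limma's adjusted p at 0.0152. The gap of 1.77 between the nearest arrays of the 2 groups exceeded the 1.10 between the 2-week replicates and the 0.32 between the 1-week replicates. With replicate 1 of the 1-week group left out, the difference was 2.31 and missed the threshold, as did that of every other gene tested. With the 2-week array that had the 3' excess left out, the Cirbp difference was 3.02. In GW2580-treated mice, Cirbp was 2.91-fold lower than in vehicle-treated mice at 2 weeks (log2 difference -1.54, SE 0.36, 95% interval -2.37 to -0.71), the 12th lowest difference of all genes, but the adjusted p of 0.0970 missed the threshold. Leaving out the 2-week vehicle arrays in turn gave -0.99 (replicate 1 out) and -2.09 (replicate 2 out). Against vehicle at 1 week the GW2580 level was higher by 0.93 (SE 0.36, 95% interval 0.11 to 1.76, adjusted p = 0.241). All 3 differences come from the same 6 arrays, and each pair of them shares a group.

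Of marker lists for 7 other cell types, 2 (neutrophil, and macrophage and monocyte) had summed levels in the same order of group means as Cirbp. Lung epithelium markers did not in sum, but most single ones shared the sign of Cirbp in 2 comparisons. Between the vehicle groups 5 of 7 lay above 0 (median 0.62, 1 called higher) and 2 below, the lowest at -3.16. With GW2580 against vehicle at 2 weeks 5 lay below 0 (median -0.69, 2 called lower, beside 0.367% of all genes called) and 2 above, the highest at 1.97. Against vehicle at 1 week 6 of 7 lay below 0, opposite to Cirbp. The summed level of the 5 neutrophil markers measured, of 6 listed and with 4 above the filter, was 8.53 and 10.14 (log2) on the GW2580 arrays, 10.01 and 10.70 on the 2-week vehicle arrays, and 8.90 and 9.41 on the 1-week vehicle arrays. The myeloperoxidase gene Mpo, which defines granulocyte precursors, averaged 4.52, below the filter, and S100a8 ranged between 6.93 and 10.2 over the arrays. Of the 4 neutrophil markers above the filter, 3 lay above 0 between the vehicle groups and 1 lay below, at -0.58. With GW2580 against vehicle at 2 weeks, 2 lay above 0, the highest at 0.58, and 2 lay below. The summed level of the 10 macrophage and monocyte markers, 9 of them above the filter, was 11.65 and 12.30 on the GW2580 arrays, 12.01 and 12.21 on the 2-week vehicle arrays, and 11.72 and 11.88 on the 1-week vehicle arrays, so the GW2580 arrays spanned both vehicle groups. Most single markers did not follow this order: 6 of the 9 lay below 0 between the vehicle groups (median -0.08, highest 0.98). Averaged as log2 levels, the list was at 6.78 and 7.23 with GW2580, 7.08 and 7.22 in 2-week vehicle, and 7.08 and 7.15 in 1-week vehicle. The GW2580 mean was then the lowest. The part of neutrophil, macrophage, monocyte or lung epithelium RNA in the Cirbp differences was not tested.

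The leading Rbm3/Rbm3-ps probe set was also highest in 2-week vehicle, by less, and its GW2580 mean was the lowest of the 3. Its level was 12.27 and 12.49 on the GW2580 arrays, 12.93 and 12.85 on the 2-week vehicle arrays, and 12.53 and 12.34 on the 1-week vehicle arrays. The 2-week vehicle arrays lay above the other 4, while the GW2580 and 1-week vehicle arrays overlapped. The mean was 12.38 ± 0.16 in GW2580, 12.89 ± 0.05 in 2-week vehicle and 12.44 ± 0.13 in 1-week vehicle. The 2-week vehicle mean exceeded the 1-week vehicle mean by 0.45 (SE 0.14, 95% interval 0.13 to 0.77), or 1.37-fold, with an adjusted p of 0.0928. The GW2580 mean was below the 2-week vehicle mean by a log2 difference of -0.51 (SE 0.14, 95% interval -0.83 to -0.19, adjusted p = 0.130), and differed from the 1-week vehicle mean by -0.05 (95% interval -0.37 to 0.27). With limma's trended and robust prior the difference between the vehicle groups passed, at an adjusted p of 0.0311.

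The other Rbm3/Rbm3-ps probe set did not show this order. Its level was 6.20 and 5.70 on the GW2580 arrays, 5.81 and 6.002 on the 2-week vehicle arrays, and 5.78 and 6.31 on the 1-week vehicle arrays. All 3 groups overlapped, and the 2-week minus 1-week vehicle difference was -0.14 (95% interval -0.65 to 0.38). The GW2580 minus 2-week vehicle difference was 0.05 (95% interval -0.47 to 0.56). Averaging the 2 probe sets brought the differences to 0.16 between the vehicle groups and -0.23 between GW2580 and vehicle at 2 weeks.

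**Figure D1:**
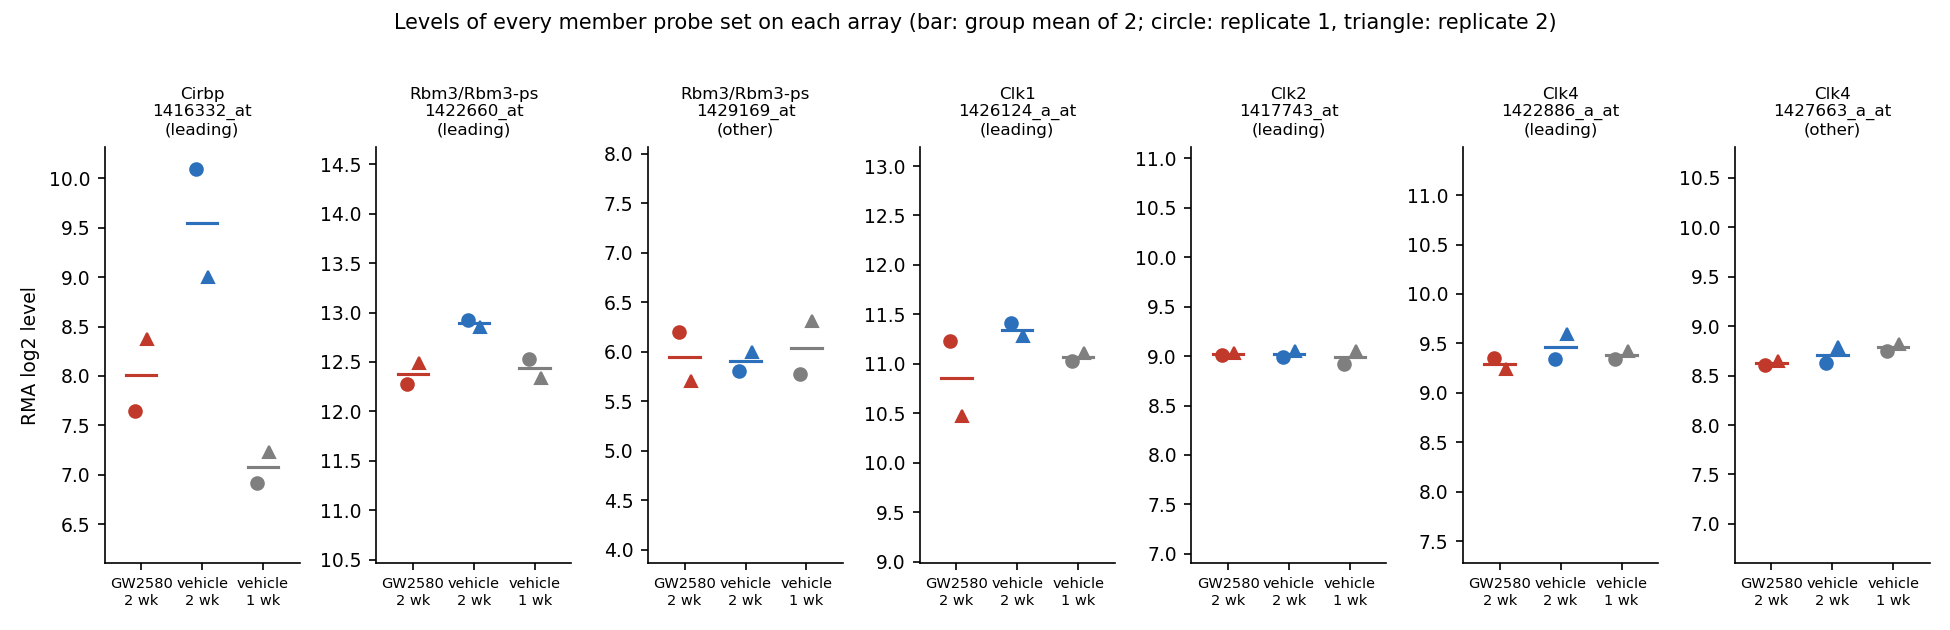
RMA log2 level (y axis) of each of the 7 member probe sets on the 6 arrays, by group on the x axis (GW2580 2 weeks, vehicle 2 weeks, vehicle 1 week). Circles are replicate 1, triangles replicate 2 and bars the mean of 2; all panels span the same number of log2 units, with different starting points. Cirbp lies at 9.001 and 10.10 in 2-week vehicle and at 7.24 or lower in 1-week vehicle, while Clk2 and Clk4 stay nearly level.

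Of the 3 kinases, Clk1 varied most between arrays. Its level was 11.23 and 10.47 on the GW2580 arrays, 11.41 and 11.28 on the 2-week vehicle arrays, and 11.02 and 11.11 on the 1-week vehicle arrays. Both 2-week vehicle arrays lay above the other 4, and the 1-week vehicle arrays fell between the 2 GW2580 arrays. The 2-week minus 1-week vehicle difference of Clk1 was 0.28 (SE 0.23, 95% interval -0.24 to 0.80, adjusted p = 0.522). The GW2580 minus 2-week vehicle difference was -0.49 (SE 0.23, 95% interval -1.01 to 0.03, adjusted p = 0.301). This second value rested on replicate 2 of the GW2580 group: without it the difference was -0.11, and without replicate 1 it was -0.87. On replicate 2 of GW2580 the summed lung epithelium markers (7 of 7 above the filter) were at 9.56. They were at 11.47 on the other GW2580 array, 10.64 to 10.97 in 2-week vehicle and 11.001 to 11.83 in 1-week vehicle. Other lists also differed between replicates 2 and 1 of GW2580. The fibroblast and smooth muscle sum was lower on replicate 2 (10.39 against 11.96). The neutrophil sum (10.14 against 8.53) and the macrophage and monocyte sum (12.30 against 11.65) were higher. The part of any of these cell types in the Clk1 level was not tested.

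Clk2 was nearly the same on all arrays. Its level was 9.01 and 9.03 on the GW2580 arrays, 8.99 and 9.05 on the 2-week vehicle arrays, and 8.92 and 9.05 on the 1-week vehicle arrays. It spanned 0.13 log2 units, a narrower span than all but 1.22% of genes. The difference between the vehicle groups was 0.04 (95% interval -0.25 to 0.32) and that between GW2580 and vehicle at 2 weeks was -0.00 (95% interval -0.28 to 0.28), so changes of more than about 1.25-fold lie outside these intervals. Both signs turned when arrays were rescaled.

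Clk4 had 2 probe sets, and neither passed the test in any of the 3 comparisons. The leading one was at 9.35 and 9.24 on the GW2580 arrays, 9.34 and 9.59 on the 2-week vehicle arrays, and 9.35 and 9.43 on the 1-week vehicle arrays. The groups overlapped throughout. Its difference was 0.08 between the vehicle groups (95% interval -0.23 to 0.40) and -0.18 between GW2580 and vehicle at 2 weeks (95% interval -0.49 to 0.14). The other was at 8.61 and 8.65 on the GW2580 arrays, 8.63 and 8.78 on the 2-week vehicle arrays, and 8.75 and 8.82 on the 1-week vehicle arrays. Its vehicle difference of -0.08 ran against the sign of the leading probe set, and its GW2580 minus 2-week vehicle difference was also -0.08. The GW2580 arrays lay below both 1-week vehicle arrays by a mean of -0.15 (95% interval -0.44 to 0.13), a separation also seen in 27.9% of all genes.

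**Figure D2:**
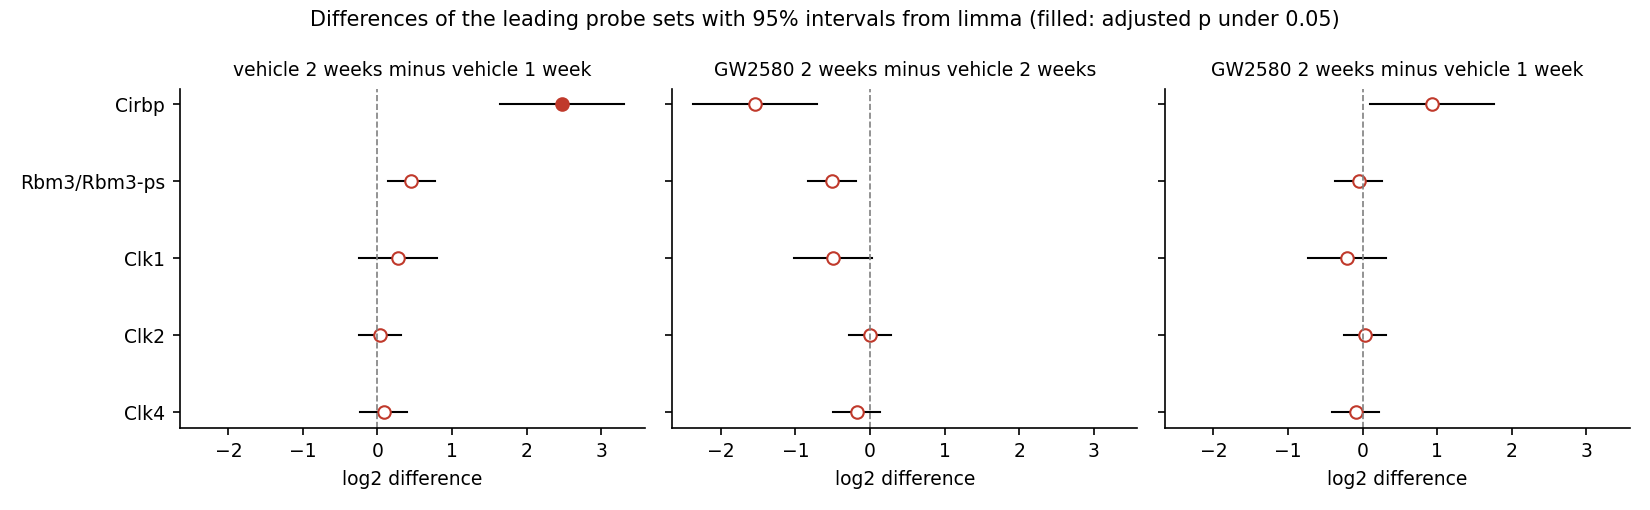
Log2 difference (x axis) of the leading probe set of each member (y axis) in the 3 comparisons, with 95% intervals from limma; filled points have an adjusted p under 0.05. Only Cirbp in the comparison of the vehicle groups, at 2.47, is filled.

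Between the vehicle groups, 1 of the 5 members rose (Cirbp) and 4 did not pass, beside 6.45% of all genes called, or 3.74% called higher. In 3 members (Cirbp, Rbm3/Rbm3-ps and Clk1) both 2-week arrays lay above both 1-week arrays, as they did in 31.5% of all genes. The median member difference was 0.28, against 0.02 over all genes. Between GW2580 and vehicle at 2 weeks, limma called 0 of the 5, beside 0.367% of all genes, with 2 members (Cirbp and Rbm3/Rbm3-ps) at an unadjusted p under 0.05, as were 18% of all genes. Limma's trended and robust prior also called 0. The same 3 members lay wholly below the 2-week vehicle arrays, as did 31.5% of all genes, and the median was -0.49, against -0.05. Between GW2580 and vehicle at 1 week, 0 members were called, beside 0.512% of genes, and Cirbp alone lay wholly above, as did 18.8% of genes. The members were chosen with these comparisons known, so these shares describe them and carry no test.

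**Figure D3:**
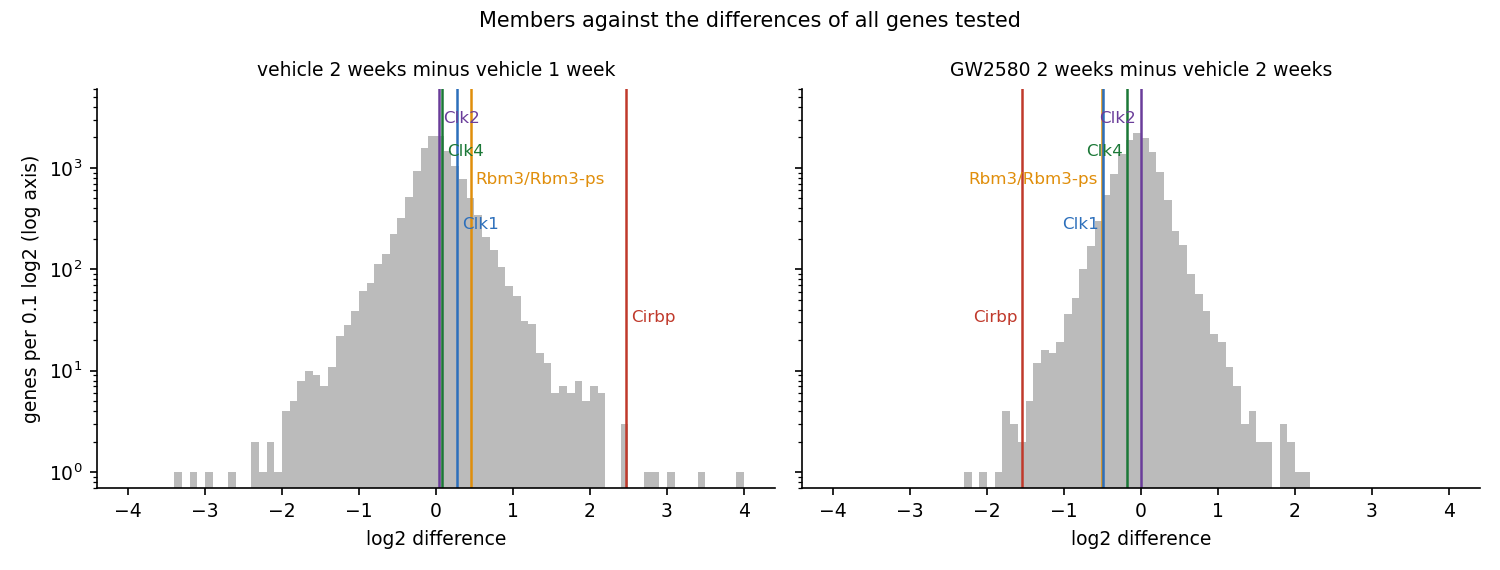
Number of genes per 0.1 log2 (y axis, log scale) by log2 difference (x axis) for the 13091 genes tested, with vertical lines for the members. Cirbp stands far out at 2.47 between the vehicle groups and at -1.54 between GW2580 and vehicle at 2 weeks, and the other 4 members lie within 0.51 of 0 on either side.

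Related genes were followed in 8 lists of 105 entries, of which 93 had a probe set of their own symbol above the filter. Between the vehicle groups 1 of the 93 rose and 4 fell, where 3.74% of all genes rose and 2.71% fell, and in both comparisons of GW2580 limma called 0. Counts at an unadjusted p under 0.05 in limma stand beside 23.6% of all genes between the vehicle groups. With GW2580 that share was 18% against vehicle at 2 weeks and 17% against vehicle at 1 week. Of 12 kinases related to the CLK family 0 passed between the vehicle groups, with 2 at an unadjusted p under 0.05, and the median difference was 0.02. Clk3, the remaining CLK gene, differed by 0.06 between the vehicle groups and by -0.05 between GW2580 and vehicle at 2 weeks, with overlapping groups in both. The smallest p values between the vehicle groups were those of Hipk1 (0.44, adjusted p = 0.156) and Dyrk2 (0.37, adjusted p = 0.193), homeodomain-interacting and dual-specificity kinases. With GW2580 they were those of Hipk2 (0.43, adjusted p = 0.163) and Hipk1 (-0.38, adjusted p = 0.284), and the median was -0.02.

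Of 16 SR and SR-like splicing proteins, the substrates of the CLK kinases and their relatives, 0 passed between the vehicle groups (median -0.00, 2 at an unadjusted p under 0.05). Srsf5 came closest: it was at 12.74 and 12.64 in 2-week vehicle and at 12.12 and 12.24 in 1-week vehicle, a difference of 0.51 with an adjusted p of 0.0511. Limma's trended and robust prior called 1 of the 16, as did a filter at the 60th percentile and the mean of a gene's probe sets. Tra2a, a splicing activator, differed by -0.44 (adjusted p = 0.187). With GW2580, 0 of 16 passed and 0 had an unadjusted p under 0.05 (median -0.08), the lowest p values being those of Srsf11 at -0.28 and Srek1 at -0.31.

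Nuclear speckle-associated genes and nuclear RNAs had a median of 0.24 between the vehicle groups (0.14 with a gene's probe sets averaged), with 13 of 15 above 0, where 52.9% of all genes lay above 0. Pnisr, which encodes an SR-related nuclear protein, was the 1 that rose: it was at 9.21 and 9.16 in 2-week vehicle and at 8.26 and 8.53 in 1-week vehicle (difference 0.79, SE 0.17, adjusted p = 0.0367). Its 6 other probe sets also lay above 0, between 0.34 and 0.99. On the GW2580 arrays Pnisr was at 8.30 and 8.69, below the same 2-week vehicle arrays by -0.69 (adjusted p = 0.105). The 2-week vehicle arrays are shared by both differences. Pnisr missed the threshold when replicate 1 at 1 week was left out, as did every other gene tested. It also missed when either vehicle array at 2 weeks was left out, and when p was adjusted over all probe sets. With GW2580, 0 of the 15 passed, 2 had an unadjusted p under 0.05 and the median was -0.11, although it turned to 0.026 with probe sets averaged and to 0.029 without replicate 2 of GW2580. The other gene with the lowest p was Luc7l3, a speckle protein with SR-like repeats, at -0.47 (adjusted p = 0.145).

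Of 13 RRM proteins related to CIRBP and RBM3, 1 fell between the vehicle groups (median -0.05, 0.07 when a gene's probe sets were averaged). This was Hnrnpa2b1, an abundant nuclear RNA-binding protein gene, at 11.58 and 11.71 in 2-week vehicle and at 12.36 and 12.14 in 1-week vehicle (difference -0.60, adjusted p = 0.0407). Its other probe sets ran the other way, at 0.25, 0.05 and 0.34, so the fall belongs to 1 of 4 probe sets, and it did not pass when any of the 4 vehicle arrays was left out. Nor did the fall pass when p was adjusted over all probe sets. With GW2580, 0 of 13 passed (2 at an unadjusted p under 0.05, median -0.08), led by Rbmx2 at -0.39 and Hnrnpa0 at -0.36. Of 4 genes with a cold shock domain, a fold unrelated to the RRM, 0 passed in either comparison. Carhsp1 differed by -0.86 between the vehicle groups (adjusted p = 0.0889) and by 0.60 with GW2580 (adjusted p = 0.272), and Ybx1 by -0.25 between the vehicle groups. Ybx3 was at -0.21 with GW2580.

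Heat-inducible chaperones, whose transcripts rise on warming, lay below 0 in all 14 genes tested between the vehicle groups (median -0.39), where 52.9% of all genes lay above 0, and 3 of the 14 fell. This list overlaps genes already known to fall in these data. Markers of fibroblasts and smooth muscle lay below 0 in 8 of 8 genes as well (median -0.68, 0 called, 4 at an unadjusted p under 0.05). So did those of tumour epithelium (5 of 5, median -0.23, 0 called) and of lymphocytes and NK cells (6 of 6, median -0.15, 1 called). The summed level of the fibroblast and smooth muscle markers was 10.70 and 10.79 in 2-week vehicle and 12.71 and 11.49 in 1-week vehicle. The part of any of these cell types in the chaperone differences was not tested. Hspa1a, an inducible HSP70 gene, was at 5.67 and 6.05 in 2-week vehicle and at 7.86 and 7.23 in 1-week vehicle (difference -1.68, SE 0.26, adjusted p = 0.0186), and it has a near-identical copy, Hspa1b (-0.39, adjusted p = 0.471), from which it may not be cleanly separated. Dnajb1, an HSP70 cofactor, fell by 1.19 (adjusted p = 0.0367) and Hsph1, an HSP110 chaperone, fell by 0.99 (adjusted p = 0.0332). The second probe sets of Dnajb1 and Hsph1 were at -1.11 and -1.12. Fewer of the 14 were called when any of the 4 vehicle arrays was left out, and without replicate 1 at 1 week no gene tested was called. With p adjusted over all probe sets 2 of the 14 fell. With GW2580 against vehicle at 2 weeks, 0 of 14 passed, 1 had an unadjusted p under 0.05 and the median was -0.05, with Hspa1a at 0.62 (adjusted p = 0.268) and Hsph1 at 0.40. Against vehicle at 1 week the GW2580 group had all 14 below 0 again (median -0.43, 0 called), where 45.8% of all genes lay above 0. The 1-week arrays are shared with the comparison of the vehicle groups. An unadjusted p under 0.05 was reached by 10 of the 14, beside 17% of all genes. Fibroblast and smooth muscle markers lay below 0 in 8 of 8 genes here too (median -0.70). Those of tumour epithelium did so in 3 of 5 and those of lymphocytes and NK cells in 4 of 6. Lung epithelium markers lay below 0 in 6 of 7 here (median -0.62), although 5 of 7 lay above 0 between the vehicle groups.

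Of 15 circadian clock genes, some of whose transcripts CIRBP binds, 0 passed between the vehicle groups (median 0.05). An unadjusted p under 0.05 was reached by 5 of the 15, beside 23.6% of all genes. The repressor gene Nfil3 differed by 0.75 (adjusted p = 0.0598) and the period gene Per1 by 0.90 (adjusted p = 0.0722). With GW2580, 0 passed (median -0.02, 3 at an unadjusted p under 0.05), with the cryptochrome gene Cry1 at -1.18 (adjusted p = 0.0709) and Bhlhe40 at 0.83 (adjusted p = 0.0851). Limma's trended and robust prior called 1 clock gene between the vehicle groups and 2 with GW2580. Of the 4 receptor genes reported for extracellular CIRBP, 0 passed in either comparison. Ly96, the TLR4 partner, was at 7.33 and 7.40 on the GW2580 arrays, 7.76 and 7.93 on the 2-week vehicle arrays, and 7.22 and 7.47 on the 1-week vehicle arrays. Its difference was 0.50 between the vehicle groups (adjusted p = 0.0751) and -0.48 with GW2580 (adjusted p = 0.145). Trem1 differed by -0.32 between the vehicle groups and by 0.49 with GW2580, and Tlr4 and Cd14 stayed within 0.06 of 0 in both.

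**Figure D4:**
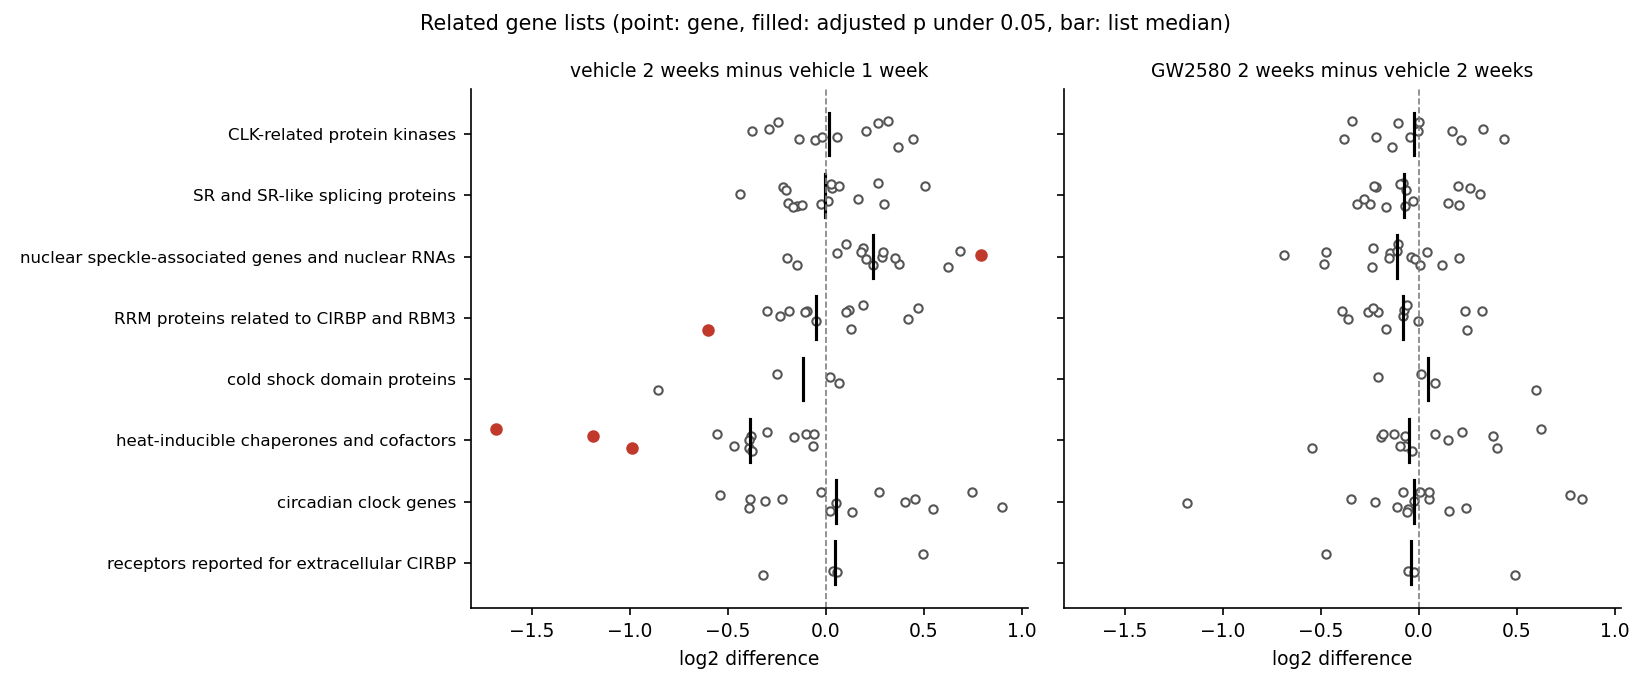
Log2 difference (x axis) of every gene tested in 8 related lists (y axis) between the vehicle groups and between GW2580 and vehicle at 2 weeks; filled points have an adjusted p under 0.05 and bars are list medians. The 14 heat-inducible chaperones all lie below 0 in the left panel, with 3 filled, and no point is filled in the right panel.

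The profiles closest to that of Cirbp were found as the smallest root mean square difference over the 6 arrays, each gene centred on its own mean. Cirbp was the 1 member that spanned at least 1 log2 unit, so the search was made for it alone. The 5 closest genes were Particl (0.27), Arrdc2 (0.31), Gm17586 (0.32), Klhl30 (0.35) and Fndc10 (0.35). Arrdc2 encodes an alpha-arrestin, an adaptor of membrane protein turnover, and Particl is a long non-coding RNA. Arrdc2 had the difference nearest to that of Cirbp between the vehicle groups, at 2.49, and the others lay between 1.85 and 2.099. With GW2580 the 5 lay between -1.46 (Fndc10) and -1.20 (Klhl30). They were picked for this likeness over the same arrays, so their differences carry no test.

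**Figure D5:**
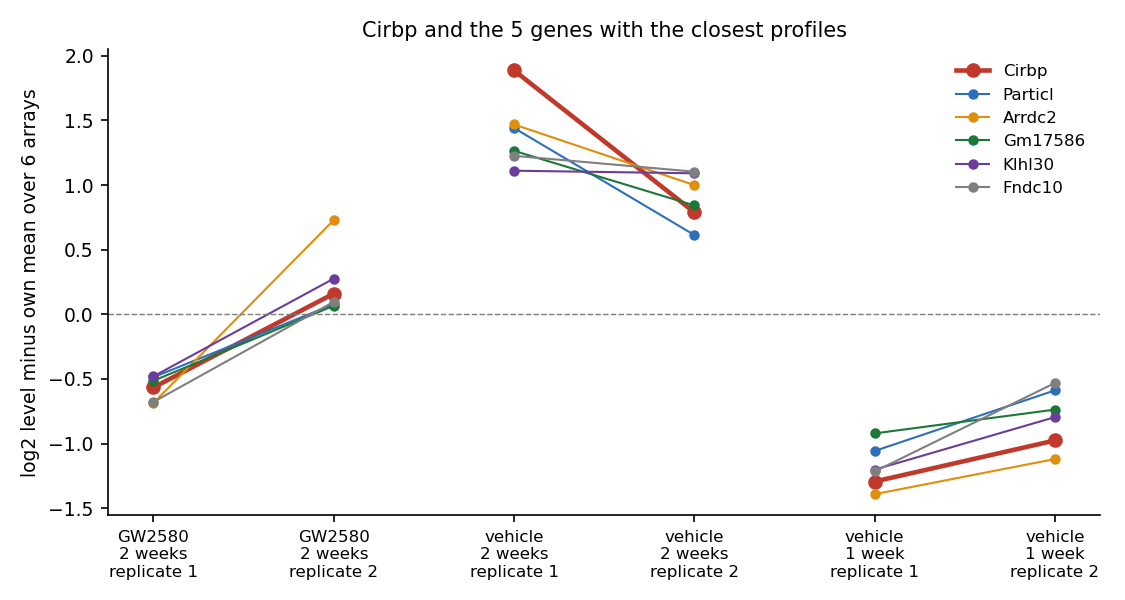
Log2 level minus the gene's own mean over the 6 arrays (y axis) for Cirbp and the 5 genes with the closest profiles, by array on the x axis; lines join the 2 replicates of a group and imply no order. All 6 genes lie above their mean on both 2-week vehicle arrays and below it on both 1-week vehicle arrays.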

How the data were processed

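The values are log2 levels from Affymetrix whole-genome mouse arrays (6 arrays, 45101 probe sets). The authors computed and deposited them as RMA log2 values, as the submitters' processing notes name that method and no version. RMA's quantile step hides shifts shared by most genes. Arrays have no read depth, and the small number (2 per group) limits the precision. Array controls (64 probe sets) were dropped. Of the rest, 34945 carried 1 gene symbol, 932 several and 9160 none. By gene identifier 34741 matched RefSeq of GRCm38.p6, and 0 symbols changed. Each gene was represented by its brightest probe set; genes under 4.97, the 40th percentile, were dropped, which left 13091. Limma 3.58.1 in R 4.3.3 fitted a mean per group over all 6 arrays (3 residual and 4.97 prior degrees of freedom), with Benjamini-Hochberg adjustment over all genes and a threshold of 0.05. Second probe sets were read from a fit on all 45037. A permutation test of 2 arrays against 2 cannot go below a two-sided p of 0.333. Named genes were the 5 members, up to 4 called genes of each list (otherwise the 2 of lowest p) and the 5 closest profiles; other genes were named after their values were seen. Alternatives for the counts of the related lists were added after seeing the data. Members and lists were chosen with earlier results of these data known.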

Additional observations from a re-analysis of the deposited data

How the results depend on the processing

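With 2 arrays a group, single arrays set many of the calls. Leaving out 1 array in turn gave 0 to 1059 genes called between the vehicle groups (844 with all arrays), 0 to 167 between GW2580 and vehicle at 2 weeks (48 with all), and 0 to 169 between GW2580 and vehicle at 1 week (67 with all). Cirbp stayed higher in 2-week than in 1-week vehicle under every alternative, at 1.92 to 3.02 when 1 array was left out. It missed the threshold when replicate 1 at 1 week was left out (2.31), as did every other gene tested. In no alternative did Cirbp pass between GW2580 and vehicle at 2 weeks (adjusted p 0.0741 to 0.348). With a trended and robust prior 2 members were called between the vehicle groups, Rbm3/Rbm3-ps passing at 0.45. Over all genes this prior called 1013 there, against 844 in the main fit. It called 131 and 139 genes in the GW2580 comparisons against vehicle at 2 weeks and at 1 week.

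Between GW2580 and vehicle at 2 weeks, 74 genes were called with no filter, 193 of all probe sets (95 higher and 98 lower, against 9 and 39), 0 from the 4 arrays compared alone and 154 with the replicate number as a block. Against vehicle at 1 week these counts were 36 for all probe sets, 24 for the 4 arrays and 182 with the block. The numbers were not taken to pair the arrays, as deviations of same-numbered arrays correlated at 0.00 to 0.29. The block changed no call among the 5 members, with Cirbp at an adjusted p of 0.0131 between the vehicle groups. Between those groups it called 3 clock genes instead of 0, 1 CIRBP receptor and 1 SR protein gene instead of 0, and 2 speckle genes instead of 1. Over all 13091 genes it called 1223 there, against 844 without the block. In each GW2580 comparison it called 1 clock gene instead of 0.

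Signs turned only in differences that did not pass. Clk2 between the vehicle groups was -0.00049 at a common 75th percentile, -0.0086 after cyclic loess and -0.031 to 0.10 when 1 array was left out. Clk2 with GW2580 against vehicle at 2 weeks was 0.025, 0.082 and -0.030 to 0.028 in the same order, and against vehicle at 1 week -0.032 to 0.10 when 1 array was left out. Clk4 between the vehicle groups was -0.044 to 0.21, and against vehicle at 1 week under GW2580 Rbm3/Rbm3-ps was -0.16 to 0.057 and Clk1 -0.59 to 0.17. The causes were not tested. An adjusted p that missed 0.05 with 2 arrays a group does not show that levels were equal.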
